A study of Rattus norvegicus with 24 samples.

Results

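Zbtb7a encodes a transcriptional repressor whose gene carried 7 of the 5327 regions that the authors list as differently methylated between young and older adult rat sperm. Its regions were found as the rows of the age table whose nearest gene is Zbtb7a (RefSeq gene ID 117107). They were therefore chosen by the measured age difference, and their values in that contrast are given below as a description without a test. The sperm came from the cauda epididymis of 24 Wistar rats, 6 in each of 4 groups, and its methylation was measured by reduced representation bisulfite sequencing (RRBS), a method that samples the CpG-rich part of the genome. Control PND65 and Control PND120 were sons of dams fed tocopherol-stripped corn oil, sampled at postnatal day (PND) 65 or 120. BDE-47 PND65 and BDE-47 PND120 were sons of dams fed the brominated flame retardant BDE-47 in the same oil at 0.2 mg/kg body weight per day, sampled at the same ages. The dams were fed oil or BDE-47 from pregnancy day 8 to PND21, before both samplings. Since 1 male was taken from each litter on each sampling day, the young and the older animals of an arm can be brothers. The sperm had passed swim-up and a density gradient meant to remove somatic cells, and its purity was not checked here.

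The Zbtb7a protein, also called LRF or Pokemon, belongs to the BTB zinc-finger family. Members of this family bind DNA through their C-terminal zinc fingers and recruit corepressor complexes, among them NCoR, BCOR and the nucleosome remodelling complex NuRD, through partner surfaces that include the BTB domain. In mice the protein restrains the tumour suppressor gene Cdkn2a and directs lymphoid progenitors to the B-cell fate, and in human erythroid cells it silences fetal globin. Mammalian sperm DNA is highly methylated over most of the genome, whereas CpG-rich gene starts are largely unmethylated.

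The sequence around the start of Zbtb7a is shown because most of the listed regions lay at that end of the gene. RefSeq gives a 300-base window for the gene, from 250 bases before to 50 bases after its start, on assembly GRCr8 at chr7:9227203-9227502, minus strand, with every CpG in capitals.
Zbtb7a promoter: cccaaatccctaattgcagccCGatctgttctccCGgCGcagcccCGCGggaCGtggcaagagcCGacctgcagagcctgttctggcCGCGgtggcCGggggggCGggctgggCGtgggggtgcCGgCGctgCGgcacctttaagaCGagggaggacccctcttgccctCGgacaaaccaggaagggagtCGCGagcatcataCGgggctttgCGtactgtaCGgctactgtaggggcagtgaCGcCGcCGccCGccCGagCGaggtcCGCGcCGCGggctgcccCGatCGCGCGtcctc
The window held 36 CpGs, against a median of 7 over the 33469 promoter windows of the same length, and 5.43% of those windows held at least as many. Those windows outnumber the 23154 annotated protein-coding genes and were not divided by kind of gene. The G and C content of the Zbtb7a window was 70.7%, against a median of 51.7%. The letters CCGG, which are their own reverse complement and contain a CpG, occurred 3 times. Of all windows 51.4% held them at least once and 19.7% at least 3 times. The GC-box letters GGGCGG, searched on both strands, also occurred 3 times, and 33.1% of all windows held them at least once and 8.97% at least 3 times. In GRCr8 the annotated gene reaches 2.02 kb farther upstream than the start used for this window, and the methylation tables use the older assembly rn6. Which listed region, if any, covers these bases was therefore not determined.

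In rn6 the 7 regions formed a cluster on chromosome 7 between 11443859 and 11451558, a span of 7699 bp, at the upstream end of the minus-strand gene. The authors' distances of the upstream regions both place the end of the gene at 11446121. Regions 1 to 5, numbered by rising coordinate, lay inside the gene within 2262 bp of that end, and regions 6 and 7 lay upstream of it. The share inside a gene was 5 of 7, against 79.7% of all listed regions. Exons and introns were not assigned, since no rn6 annotation was used here. Gaps between neighbouring regions ran from 53 to 593 bp. All 7 regions were read in the same animals, and the closest neighbours may share fragments, so they are not independent measurements. Together the 7 regions held 39 CpGs, between 3 and 10 each. Of the 4131 genes in the age table, 3227 (78.1%) had a single region, 3 had 7 and 0 had more.

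Every level below is the authors' single value for a group of 6 animals. Values of single animals number 0 in these columns, and the depth of each region beyond the authors' minimum of 10 reads per CpG is unknown. The spread between animals is therefore unknown too, no p-value was computed, and it was not tested whether any difference exceeds that spread.

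Control sperm had higher Zbtb7a methylation at PND120 than at PND65 in all 7 regions, by 6.07 to 13.9 percentage points with a median of 11.6. Of all listed regions, 99.2% were higher at PND120 in controls, so this direction is that of the table and not of the gene. A difference of at least 10 points was found in 4 of the 7 regions, against 41.0% of all listed regions. The smallest difference among the Zbtb7a regions, 6.07 points, lay just above the 5 points that 99.1% of all listed regions, and 7 of 7 here, reach as a gain in controls. Regions with smaller differences in both arms are not in the table.

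Deepest inside the gene, region 1 (11443859 to 11444550, 5 CpGs) had a methylation level of 0.539% in Control PND65, 14.0% in Control PND120, 7.44% in BDE-47 PND65 and 5.62% in BDE-47 PND120. The young controls were thus near 0, and both BDE-47 groups lay between the control groups. Region 2 (11444614 to 11444939, 3 CpGs) had levels of 5.57%, 19.4%, 13.5% and 14.9% in the same order of groups. It had the highest level inside the gene in each of the 4 groups. Its control difference of 13.9 points was the largest at the gene, followed by 13.4 points in region 1.

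Region 3 (11445064 to 11445247) held 9 CpGs in 183 bp and had levels of 0.545% in Control PND65, 6.61% in Control PND120, 4.12% in BDE-47 PND65 and 2.97% in BDE-47 PND120. It was the lowest of the 7 regions in all groups except Control PND65, where region 1 at 0.539% and region 4 at 0.395% were lower still. It also had the smallest control difference. Region 4 (11445840 to 11445909, 4 CpGs) had levels of 0.395%, 12.0%, 8.27% and 6.94% in the same order. With 5.80 listed CpGs per 100 bp, region 4 was the densest, ahead of region 3 with 4.92, while regions 1, 2, 6 and 7 had 0.724, 0.923, 1.06 and 0.220. The median over the 7 regions was 1.06, below the 2.80 over all listed regions.

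At the upstream end of the gene, region 5 (11445962 to 11446067, 3 CpGs) ended 54 bp inside it and region 6 (11446176 to 11446647, 5 CpGs) began 55 bp outside it. Region 5 had levels of 3.75% in Control PND65, 16.0% in Control PND120, 8.53% in BDE-47 PND65 and 8.87% in BDE-47 PND120. Region 6 had levels of 1.30%, 9.96%, 6.17% and 6.06% in the same order. On both sides of the gene's end, then, young controls were lowest, old controls highest, and the BDE-47 groups lay close together between them.

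Region 7 (11447018 to 11451558, 10 CpGs) stood apart from the other 6 in level, length and order of the groups. It covered 4540 bp, or 59.0% of the whole span, at 0.220 listed CpGs per 100 bp. Its levels were 28.9% in Control PND65, 36.4% in Control PND120, 34.4% in BDE-47 PND65 and 37.8% in BDE-47 PND120. All 4 values lie above the highest level of any other Zbtb7a region, 19.4%. It was the only region of the gene where older BDE-47 sperm had the highest level of the 4 groups, and the only one with a Control PND65 level of 10% or more. A level under 10% in Control PND65 was found in 6 of the 7 regions, against 78.2% of all listed regions. Region 7 is 1 of 1161 listed regions with a Control PND65 level of 10% or more. Their median Control PND65 level was 29.1%, their median width 16887 bp and their median density 0.0546 listed CpGs per 100 bp. The BDE-47 PND120 level lay between both control levels in 641 of the 1161. The length and sparse CpGs of region 7 were thus not particular to this gene.

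**Figure D1:**
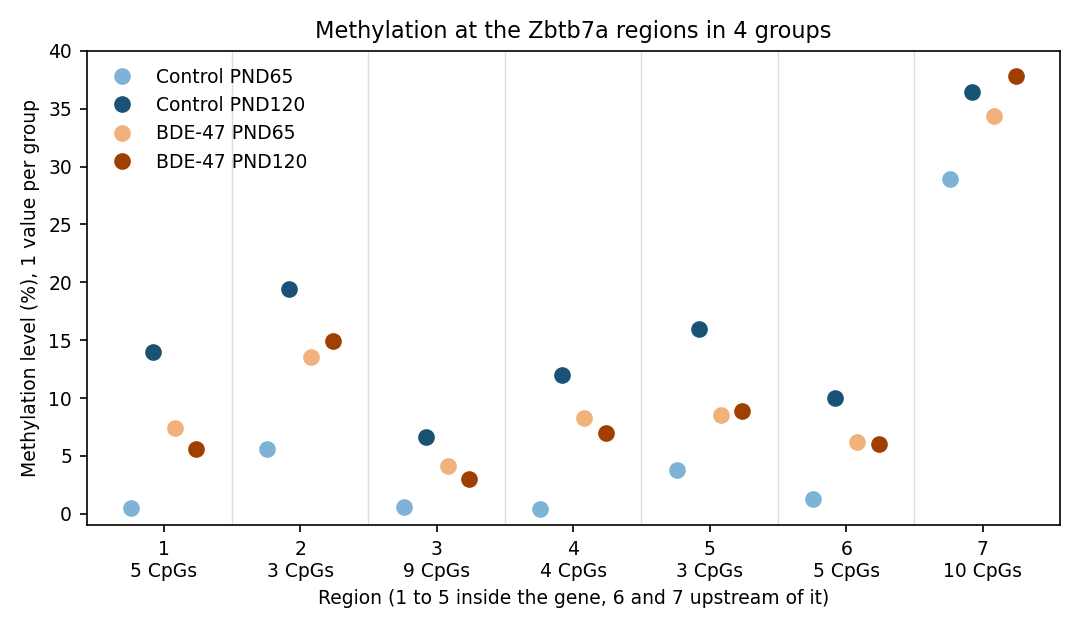
Methylation level in percent (vertical axis) of the 7 Zbtb7a regions in order of coordinate (horizontal axis), with 1 point for each of the 4 groups and no error bar because the authors give 1 value per group. In regions 1 to 6 both BDE-47 points lie between the control points, while in region 7 the BDE-47 PND120 point, at 37.8%, is the highest.

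**Figure D2:**
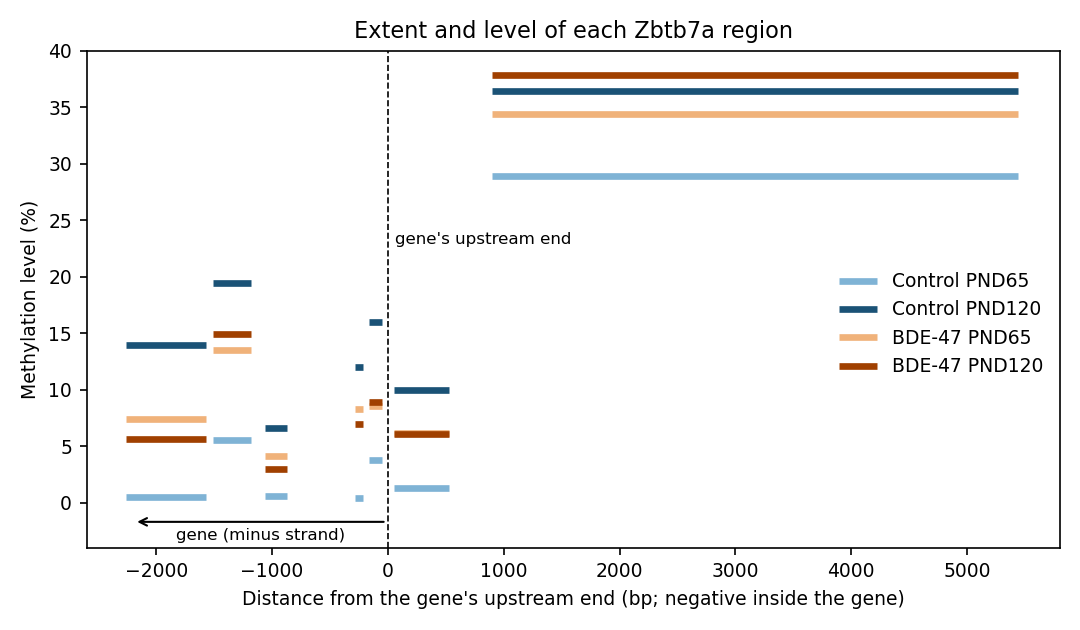
The same levels in percent drawn as bars over the extent of each region, with distance in bp from the upstream end of the gene on the horizontal axis and colours for the 4 groups. The 5 regions inside the gene and the region that begins 55 bp upstream stay at or below 19.4%, and the 4540 bp region farther upstream runs from 28.9% to 37.8%.

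BDE-47 sperm showed little difference between the ages at the same regions. The level at PND120 minus that at PND65 ran from -1.82 points in region 1 to 3.43 points in region 7, with a median of -0.106. It was below 0 in 4 regions and above 0 in 3, against 66.9% below 0 over all listed regions. The difference was under 2 points in size in 6 of 7 regions, against 86.6% of all listed regions. A difference of at least 5 points was found in 0 of 7, against 3.55% of all. Leaving out region 7 by a width limit of 1000 bp moved the BDE-47 median to -0.629 points, and weighting the regions by their CpGs turned it to 0.360.

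**Figure D3:**
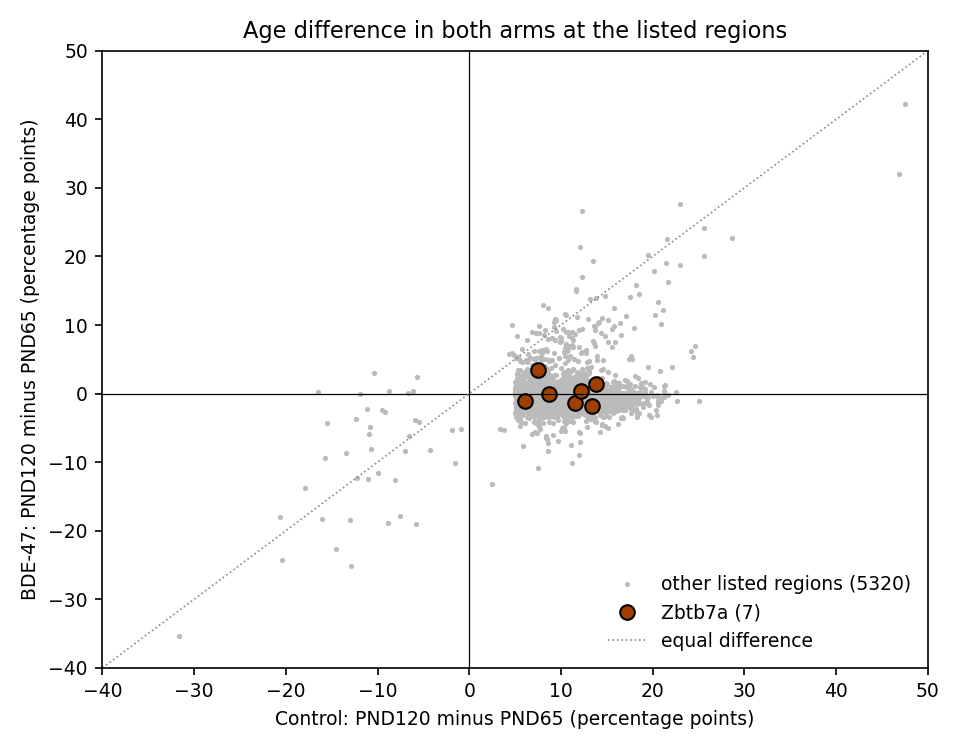
PND120 minus PND65 in percentage points in controls (horizontal axis) and in BDE-47 animals (vertical axis) for the 7 Zbtb7a regions (large points) and the other listed regions (small grey points), with a dotted line where both differences are equal. The Zbtb7a points run from 6.07 to 13.9 on the control axis and from -1.82 to 3.43 on the BDE-47 axis, all below the dotted line.

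At PND65, Zbtb7a methylation was higher in BDE-47 sperm than in control sperm in all 7 regions, by 3.58 to 7.96 points with a median of 5.46. Over all listed regions 93.7% were higher, with a median of 5.65 points. The difference reached 5 points in 4 of 7 regions, against 59.9% of all. At PND120 the direction was the opposite in regions 1 to 6, where BDE-47 minus control ran from -8.35 points in region 1 to -3.64 points in region 3. In region 7 it was higher by 1.42 points. The count of 6 of 7 lower regions compares with 90.2% of all listed regions. The median difference at PND120 was -4.56 points, and -4.11 points over all regions. A level at least 5 points lower was found in 3 of 7 regions, against 34.0% of all.

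BDE-47 levels at both ages lay between both control levels in 6 of the 7 regions, against 82.1% of all listed regions. At PND65 alone this held for 7 of 7 (84.4% of all) and at PND120 alone for 6 of 7 (84.8%). Measured as a share of the way from the Control PND65 to the Control PND120 level, the BDE-47 PND65 level stood at 39.2% of the way in region 5 to 73.1% in region 7, with a median of 57.4%. The BDE-47 PND120 level stood at 37.8% in region 1 to 67.2% in region 2 and at 119% in region 7. Over all listed regions the medians were 60.6% and 56.0%. The shares for Zbtb7a are near the background, and nothing in them is particular to the gene. All these comparisons share the control values, which differed by at least 5 points between the ages in all 7 regions. The BDE-47 values did so in 0 of 7, although which arm passed the authors' q threshold is not given. The comparisons are thus not independent of how the regions were listed. The order of both BDE-47 ages is also not separated, as the spread between animals is unknown.

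Zbtb7a had 0 of the 30 regions in the authors' table of exposure differences within an age. The nearest of its 5 regions on chromosome 7, near the kinase gene Nuak1, lay 13.6 Mb away. The exposure differences described above thus come from regions listed for age, and they are not exposure calls.

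Around Zbtb7a, another 20 listed regions of 16 genes lay within 500 kb, all higher in controls at PND120 by 5.87 to 21.7 points. Of all listed regions 99.2% were higher, so this direction is that of the table. The median of the 20 neighbours was 10.2 points, beside 11.6 points at Zbtb7a and 9.30 points over all listed regions. The nearest, 29253 bp from region 1 on the downstream side, was in Pias4, which encodes a SUMO ligase. It had levels of 0.455% in Control PND65, 10.7% in Control PND120, 6.41% in BDE-47 PND65 and 5.97% in BDE-47 PND120, the order seen in Zbtb7a region 1. On the upstream side no region was listed for 130479 bp, up to LOC102553301.

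A different pattern was found at Dapk3, which encodes a death-associated protein kinase, 43232 bp from region 1. Its region of 23 CpGs had levels of 26.1% in Control PND65, 47.7% in Control PND120, 28.4% in BDE-47 PND65 and 44.7% in BDE-47 PND120. Both arms were thus higher at PND120 there, with differences of 21.7 points (controls) and 16.3 points (BDE-47). The other neighbour with a BDE-47 difference of at least 5 points was a region near Gng7, a G protein gamma subunit gene, with 16.6 points in controls and 8.51 in BDE-47 animals. In the other 18 neighbouring regions the BDE-47 difference was below 5 points, as in the 7 regions of Zbtb7a. Only 3.55% of all listed regions reached 5 points, so low BDE-47 differences are not particular to this stretch of the chromosome. Among the 10 neighbours with a Control PND65 level under 10%, both BDE-47 ages differed by -2.16 to 1.09 points.

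**Figure D4:**
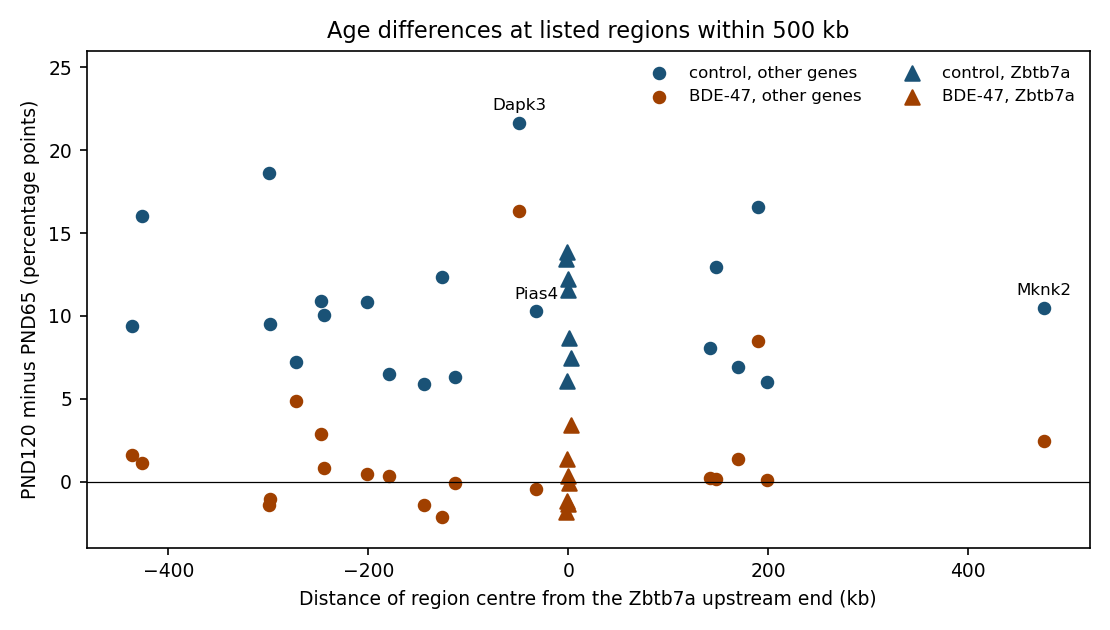
PND120 minus PND65 in percentage points (vertical axis) for the listed regions within 500 kb, by distance in kb of the region's centre from the upstream end of Zbtb7a (horizontal axis), with triangles for Zbtb7a, circles for other genes, blue for controls and brown for BDE-47. All blue symbols lie above 5 points, while the brown symbols lie between -2.16 and 4.84 points except at Dapk3, with 16.3 points, and at a Gng7 region, with 8.51 points.

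Among the 12 other genes with at least 5 listed regions, the group profile nearest to that of Zbtb7a was that of Egr4, a zinc-finger gene of the early growth response family. Likeness was the Euclidean distance between mean levels over each gene's regions in the 4 groups. The mean levels of Zbtb7a were 5.86% in Control PND65, 16.3% in Control PND120, 11.8% in BDE-47 PND65 and 11.9% in BDE-47 PND120. Those of Egr4 were 7.64%, 17.2%, 12.9% and 12.4% in the same order, at a distance of 2.37 points. Next came Skor1, a transcriptional corepressor gene, at 3.59 points, and Bahd1, a heterochromatin protein gene, at 4.59 points. Tnrc18 lay at 6.62 points. The Zbtb7a means rest in part on region 7, since the median over its regions was 1.30% in Control PND65.

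**Figure D5:**
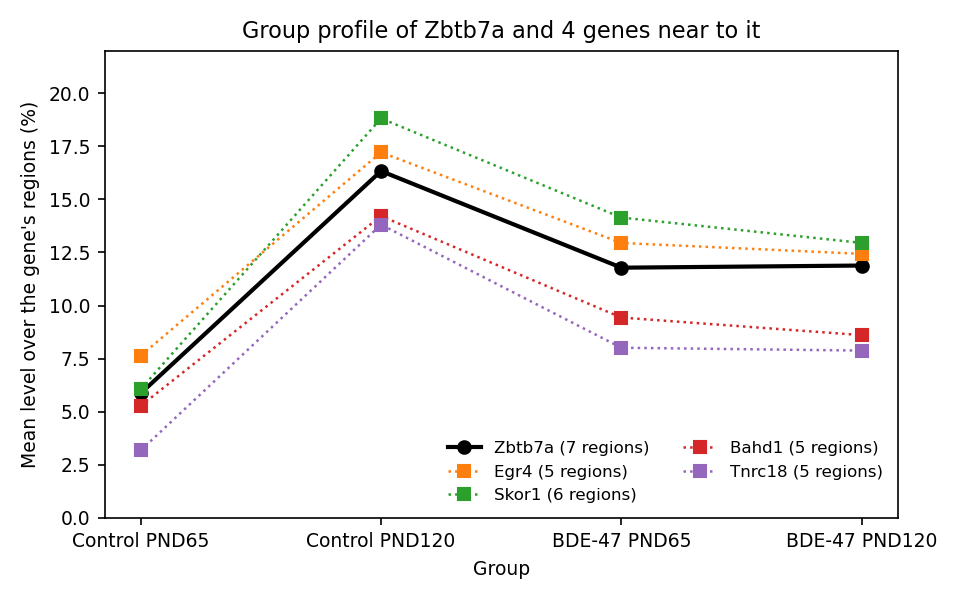
Mean methylation level in percent (vertical axis) over the listed regions of Zbtb7a (black line) and of Egr4, Skor1, Bahd1 and Tnrc18, which are among the 5 genes with the nearest profile (dotted lines), in the 4 groups (horizontal axis). Each profile is lowest in Control PND65, highest in Control PND120 and intermediate in both BDE-47 groups, with Zbtb7a at 5.86%, 16.3%, 11.8% and 11.9%.

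The other genes with 7 regions, the nuclear receptor gene Nr2e1 on chromosome 20 and the Hedgehog receptor gene Ptch1 on chromosome 17, had values of the same order. The control difference had a median of 9.95 points at Nr2e1 and 11.0 points at Ptch1, beside 11.6 points at Zbtb7a. The BDE-47 difference had a median of -0.289 points at Nr2e1 and -0.0918 points at Ptch1, beside -0.106 points at Zbtb7a. The highest Control PND65 level was 4.60% at Nr2e1 and 6.63% at Ptch1, so neither had a listed region like region 7 of Zbtb7a with 28.9%. Without values of single animals none of these differences between genes could be tested.

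Zbtb7a's relatives of the BTB zinc-finger family were listed at 15 of 47 genes (31.9%), and 15.7% of all protein-coding genes in the annotation were listed. Since RRBS samples CpG-rich genes more often, and which genes it reached is not known here, these shares are not compared further. The family had 21 regions, all higher in controls at PND120, as were 99.2% of all listed regions. The family median was 9.53 points, beside 9.30 points over all listed regions. The BDE-47 differences ran from -2.77 to 0.978 points. The largest control differences were 14.7 points at Zbtb46, a marker of dendritic cells in mice, and 14.1 points at Bcl6, the germinal-centre repressor. They were followed by 13.1 points at Zbtb6, 12.9 points at Zbtb41 and 12.5 points at Zbtb44. Bcl6 had 4 regions, the most of any relative and fewer than the 7 of Zbtb7a.

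Corepressor genes whose products act with this family, with subunits of NuRD, were listed at 9 of 20 members (45.0%), beside the 15.7% of protein-coding genes, a share that also depends on which genes RRBS reached. Their 12 regions were all higher in controls at PND120, as were 99.2% of all listed regions. The median of the 12 was 10.7 points, beside 9.30 points over all listed regions. The largest control differences were 12.4 points at the histone deacetylase gene Hdac1, 12.3 points at the NuRD subunit gene Mta2, 12.1 points at the NuRD remodeller gene Chd4, 11.9 points at the related subunit gene Mta1 and 11.8 points at Bcor, the BCL6 corepressor gene. BDE-47 levels lay between both control levels in 8 of these 12 regions at PND65 and in 7 at PND120, against 84.4% and 84.8% of all listed regions, and the difference from that background was not tested. The regions outside at PND65 were those of Mbd3 and Bcor, and at PND120 also that of Gatad2a. These were singled out after their values were seen. The region of the NuRD subunit gene Mbd3 had 0.596% in Control PND65, 10.6% in Control PND120, 19.3% in BDE-47 PND65 and 21.3% in BDE-47 PND120. A Bcor region of 3 CpGs had 1.22%, 8.24%, 15.4% and 12.8%, listed in the same sequence of groups. Both BDE-47 levels were above the older controls in these regions of Mbd3 and Bcor, unlike in regions 1 to 6 of Zbtb7a. In the other Bcor regions both BDE-47 levels were below both controls, with 22.0%, 33.8%, 18.1% and 18.3% in a region of 8 CpGs and 9.81%, 18.8%, 9.42% and 8.04% in a region of 6 CpGs. Of 4 genes reported as targets of the protein in mouse or human cells (Cdkn2a and the glycolysis genes Slc2a3, Pfkp and Pkm), 0 had a listed region, a count too small to set against that 15.7%.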

How the data were processed

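Reads were mapped to rn6 with Bismark 0.16.1 and Bowtie2 2.2.9, per the submitters' processing notes, and PCR duplicates were removed with nudup 2.2, per the series' design text. Per the file headers, the authors kept CpGs with at least 10 reads and regions with at least 3 CpGs and q under 0.05. Regions were called with MethPipe and given their nearest gene with closest-features 2.4.25, per the design text. The deposited age table holds methylation levels as fractions, 1 per group and region, shown here as percent. Differences were computed from these levels and equalled the authors' deposited difference columns to 1.42e-14 points. Neither table gives which arm passed the q threshold. An age difference of at least 5 points in size was found in controls in 5316 of the 5327 regions, and in BDE-47 animals in 189. Library depth and region coverage are unknown, so no interval was computed.

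The members, gene lists and rules were chosen with earlier results of these data known. Named genes were all Zbtb7a regions, the 5 nearest profiles (1 of them is not reported here), neighbours within 500 kb, the 5 largest control differences per list, and Nr2e1 and Ptch1. Symbols and promoter sequence came from RefSeq tables of GRCr8. All 71 list members matched a current symbol. Computations used Python 3.11.15, pandas 2.3.3 and numpy 2.4.6. No test was run. Coordinates were copied from the tables without change, and whether these count bases from 0 or 1 is not stated.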

Additional observations from a re-analysis of the deposited data

How the results depend on the processing

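The main medians over the 7 Zbtb7a regions were 11.6 points (control age difference), -0.106 (BDE-47 age difference), 5.46 (BDE-47 minus control at PND65) and -4.56 (the same at PND120), given in this order below. Inside the gene only (5 regions) they were 12.2, -1.15, 6.90 and -5.03. With at least 5 CpGs (4 regions) they were 8.06, -0.629, 5.16 and -3.77. With widths up to 1000 bp (6 regions) they were 11.9, -0.629, 5.89 and -4.79. Means weighted by CpGs were 9.34, 0.360, 5.52 and -3.46, and merging regions under 1000 bp apart left 1 region with the same values. With at least 10 CpGs only region 7 was left, with 7.46, 3.43, 5.46 and 1.42. The BDE-47 age difference thus turned in 3 settings and the PND120 difference in 1, the one left with region 7 alone. The control and PND65 differences stayed above 0 in the 6 settings. Both were above 0 in each of the 7 regions, so no choice or weighting of regions could have turned them. The count of regions higher in older controls, 7 at first, was 5, 4, 6, 1 and 1 under these region settings, equal to the regions left, and 4 with a minimum of 10 points. No paired analysis was possible because the tables hold 1 value per group. Codes in the sample descriptions may tie animals of both ages to a litter, but group values cannot be paired by them. Depth per region is unknown, so no limit from depth could be set.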
